A study of Mus musculus with 23 samples.

Results

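In mouse embryonic stem cells rescued with wild-type CTCF (ESC-WT), most RNA cross-link sites of CTCF stood alone, and a small set of sites lay packed into broad clusters. To collect these clusters, same-strand ESC-WT sites up to 8 nt apart were merged, and a merged region was kept when it held at least 4 sites, spanned at least 10 nt and had no site of the ESC control without UV cross-linking (noXL) within 5 nt. This gave 1187 broad clusters among 361518 merged regions on chromosomes 1 to 19, X and Y. The clusters were chosen by the ESC-WT site positions and the ESC noXL sites, so their number, width and site count are descriptions. They fell into 2 settings with different sequences: 311 lay within 50 nt of an annotated transcript start, and 876 lay elsewhere, mostly in coding exons.

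CTCF is a zinc finger protein known for anchoring chromatin loops together with cohesin, and it also binds RNA through its peripheral zinc fingers, among them the first (ZF1). iCLIP2 maps such contacts at single-nucleotide resolution: UV light links protein to RNA, the protein is immunoprecipitated, and reverse transcription stops at the peptide left on the RNA, so that the nucleotide before the start of a read marks the cross-link. UV cross-links form most readily at uridines, and libraries without UV show where reads arise with no cross-link.

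The cells were ES-E14TG2a ESCs in which endogenous CTCF carried an auxin degron and was degraded with 1 µM 5-Ph-IAA, while 1 µg/mL doxycycline switched on a Flag-Halo-tagged rescue CTCF over the same 24 hours. The rescue was wild type (WT) or lacked ZF1 (ΔZF1), each from a single clone, and neural progenitor cells (NPCs) were cells of the same clones after 2 days of differentiation. Cells were cross-linked with 400 mJ/cm2 at 254 nm, and CTCF was immunoprecipitated from nuclear extract through its Flag tag. The noXL controls were WT rescue cells handled alike without UV. Libraries numbered 4 for ESC-WT, 4 for ESC ΔZF1, 4 for ESC noXL, 3 for NPC-WT, 4 for NPC ΔZF1 and 4 for NPC noXL, and those of one group had been merged before sites were called. Each group therefore had 1 list and no replicate spread, and the intervals given are 95% Wilson intervals that cover counting error only. List lengths were 451137 sites (ESC-WT), 231636 (ESC ΔZF1) and 158968 (ESC noXL) in ESCs and 239258 (NPC-WT), 158490 (NPC ΔZF1) and 107227 (NPC noXL) in NPCs. The read depth behind them is unknown. As a check of the labels, all 7 ESC markers held more sites in ESC-WT than in NPC-WT, from 460 against 0 for Esrrb and 164 against 11 for Zfp42 to 37 against 14 for Pou5f1. The neural progenitor gene Nes had 2 ESC-WT and 28 NPC-WT sites, and Sox1, Pax6, Hes5 and Zic1 had none in both WT lists, so that the NPC label rests on Nes here.

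Sequences from the GRCm38.p6 genome show what the clusters look like on the RNA. Each is 30 nt long, runs 5′ to 3′ and has the ESC-WT cross-link sites in capitals. The first pair lie at the transcript starts of the RNA-binding protein gene Fxr1 and the nuclear receptor corepressor gene Ncor1 and are shown because few of their sites are on uridine:
Fxr1, 5′ UTR, chr3:34020080-34020109, plus strand: gaaucucUucCcaGCAGccuUuGcgguucc
Ncor1, 5′ UTR, chr11:62457306-62457335, minus strand: ccugagggGgaGGGagugGggUugaggcaa
The next group lie inside transcripts and are shown for the most frequent base, with every capital a uridine:
Ran, 3′ UTR, chr5:129022993-129023022, plus strand: uUUuUUggacuUgcauauUUagcuguuUgg
Hspa5, coding exon, chr2:34775081-34775110, plus strand: uUgauguUUguccccuUacacuUgguauUg
Pabpc1, coding exon, chr15:36602962-36602991, minus strand: uacuagguUUgUUggacgaUUUaaaucucg
Mtf2, coding exon, chr5:108093333-108093362, plus strand: uuuagguuUUauacaUuuauUUgcucuguc
Esrrb, intron, chr12:86493152-86493181, plus strand: gcucuaauagUUuuguauUUauagagugcu
The last group are in small structured RNAs, the 7SK RNA and 3 transfer RNAs, and are shown for the cluster with most sites and for a shared form among tRNAs:
Rn7sk, non-coding exon, chr9:78175340-78175369, minus strand: UagUCAagcUUCCaaGaCUCCaGacacaUC
n-TTagt6, tRNA gene, chr13:23450639-23450668, plus strand: gguuaaagcGccuguCUAGUaaacaggaga
n-TNgtt5, tRNA gene, chr3:96334643-96334672, minus strand: cggucagcgcGuucggcUGUUaaccgaaag
n-TLtag3, tRNA gene, chr11:69124258-69124287, plus strand: gucuaaggcGcuggaUUUagGcuccagucu

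The clusters were small. The number of sites ran from 4 to 18 with a median of 4, and the span from 10 to 54 nt with a median of 12 nt. Exactly 4 sites made up 749 clusters, 5 sites 259 and 6 sites 106. Together the clusters held 5503 sites, 1.22% of the ESC-WT list. The highest PureCLIP score in a cluster, a log ratio between the probabilities of the likeliest and the next likeliest state of a position, had a median of 13.3, beside 5.16 for regions of 2 or 3 sites and 2.33 for single sites. Just inside the rule, the 177 clusters of 4 sites over 10 nt had a median top score of 11.9. Just outside it, the 207 regions of at least 4 sites over 9 nt had 12.8 and the 1534 regions of 3 sites over at least 10 nt had 6.61. A top score is a maximum over the sites of a region, and the rule fixed their number, so that nothing is read from its order between classes.

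Dense regions met noXL sites often. Before removal, 2025 regions had 4 or more sites over 10 nt or more, and 838 of them (41.4%, interval 39.3 to 43.5%) had an ESC noXL site within 5 nt. The same was true of 13.1% of regions of 2 or 3 sites and of 5.09% of single sites. Wider regions were searched over more positions, and the part of width in these shares was not tested. Of the 838 removed regions, 494 (58.9%, 55.6 to 62.2%) lay within 50 nt of a transcript start. Transcript starts were thus the place where both removed and kept dense regions were frequent.

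By transcript part, taken at the highest-scoring site, broad clusters were in coding exons in 504 cases (42.5%, 39.7 to 45.3%) and in 5′ UTRs in 241 (20.3%, 18.1 to 22.7%). Introns held 137 (11.5%, 9.85 to 13.5%), 3′ UTRs 113 (9.52%, 7.98 to 11.3%), intergenic sequence 107 (9.01%), exons of non-coding transcripts 58 (4.89%) and the antisense strand of genes 27 (2.27%). Single ESC-WT sites were in introns in 36.8% and in 5′ UTRs in 4.69%. Compared with single sites, the share in 5′ UTRs was higher by 15.6 percentage points (lower bound 13.4), that in coding exons by 10.0 points (7.21 to 12.8) and that in intergenic sequence by 6.39 points (4.88 to 8.15). The intron share fell by 25.3 points (difference -27.0 to -23.3) and the 3′ UTR share fell by 7.18 points (-8.72 to -5.37). Regions of 4 or more sites under 10 nt, the class most like the clusters, had 41.4% in coding exons, 14.9% in introns, 13.04% in 3′ UTRs, 11.1% (9.67 to 12.7%) in 5′ UTRs and 10.8% in intergenic sequence. They thus shared most of the shift in coding exons, introns and intergenic sequence, whereas their 5′ UTR share was below that of the broad clusters beyond the intervals. Their 3′ UTR share (11.5 to 14.8%) was above that of the broad clusters, also beyond the intervals. Regions of 2 or 3 sites had 27.6% in introns and 7.35% in 5′ UTRs. ESC noXL sites were in introns in 38.1% and in 5′ UTRs in 6.24%. Where an intron of any transcript was given priority over exons of others, 24.1% of the clusters counted as intronic. With only sites at or above the median score of the 6 lists 4.86% of 391 clusters were in introns, and with at least 6 sites 27.4% of 179 were in coding exons.

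**Figure D1:**
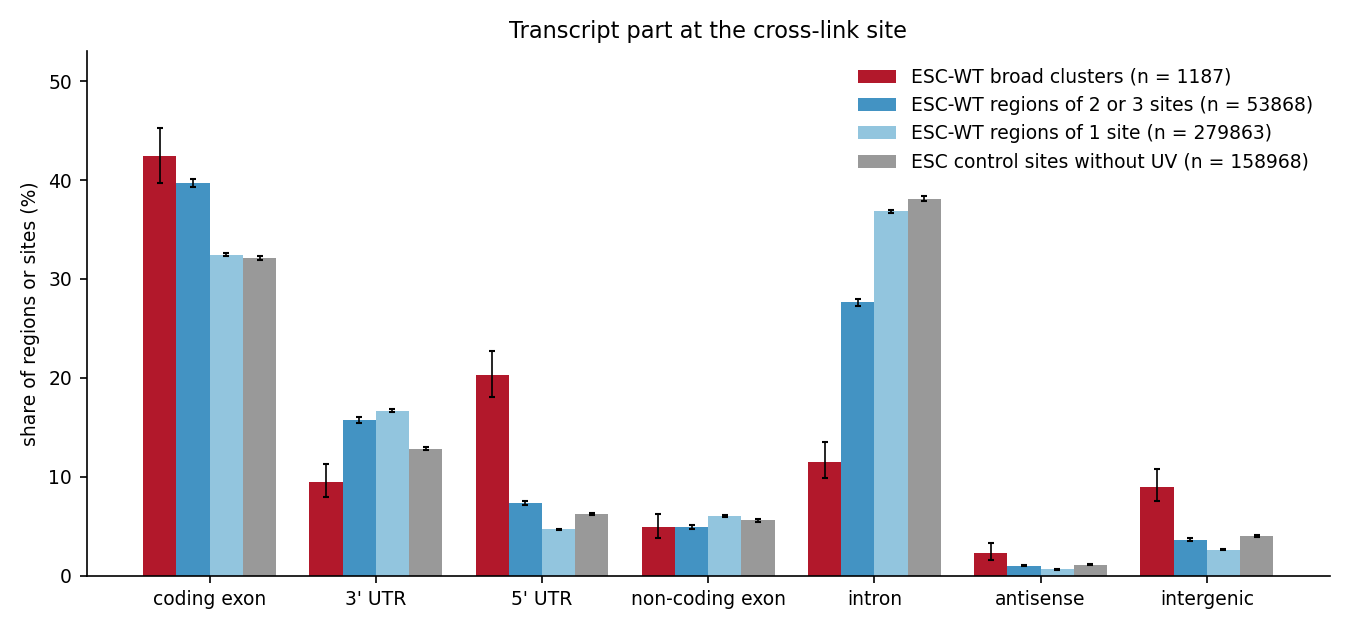
Share of regions or sites (%) in each transcript part, for ESC-WT broad clusters, ESC-WT regions of 2 or 3 sites, ESC-WT single sites and ESC control sites without UV, with 95% Wilson intervals as error bars. The clusters stand above the other classes in 5′ UTRs (20.3%) and below them in introns (11.5%).

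The 5′ UTR clusters were clusters at transcript starts. Of the 241, 220 (91.3%) lay within 50 nt of an annotated start and 108 (44.8%) within 5 nt, and their median distance was 1 nt downstream of it, with quartiles at -3 and 11 nt. Single sites in 5′ UTRs lay a median of 27 nt downstream, with 14.3% within 5 nt. Over all parts, 311 of the 1187 clusters (26.2%, 23.8 to 28.8%) were within 50 nt of a start, compared with 13.3% of regions of 4 or more sites under 10 nt, 8.76% of regions of 2 or 3 sites and 5.43% of single sites. Besides the 220 in 5′ UTRs, these start clusters comprised 33 in coding exons, 31 just outside annotated transcripts, 16 in non-coding exons, 6 antisense and 5 in introns.

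**Figure D2:**
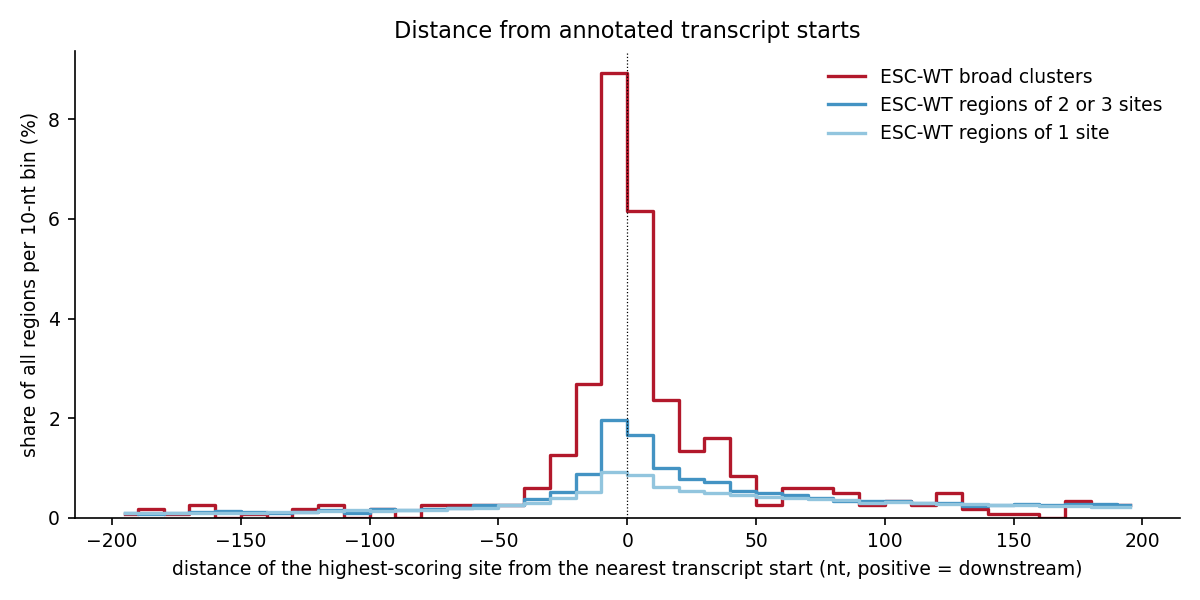
Distance in nt of the highest-scoring site from the nearest annotated transcript start (x axis, positive downstream) against the share of all regions per 10-nt bin (%), for broad clusters, regions of 2 or 3 sites and single sites of ESC-WT. The broad clusters peak in the bins next to the start, where the other classes show a lower peak at the same place.

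Inside genes, coding-exon clusters gathered beside exon junctions. In the transcript with the longest coding part of each gene, 281 of 498 coding-exon clusters with a junction (56.4%, 52.0 to 60.7%) had their highest-scoring site within 20 nt of one. The share was 54.9% for regions of 4 or more sites under 10 nt, 38.5% for regions of 2 or 3 sites and 28.8% for single sites, so it rose with the number of sites in a region. Along the coding part, divided into 5 equal lengths, the first held 25.1% (21.5 to 29.1%) of the clusters and the last 16.2% (13.2 to 19.6%), beside 23.3% and 18.5% of single sites.

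The base under the site differed between the settings. Uridine lay under 3108 of the 5503 cluster sites (56.5%, 55.2 to 57.8%), beside 61.6% for the other ESC-WT sites without a noXL site nearby and 28.3% for ESC noXL sites. Away from transcript starts the uridine share was 66.3% (64.8 to 67.7%), and at starts it was 29.0% (26.7 to 31.4%), where 448 of the 1443 sites were on guanosine, 445 on cytidine, 418 on uridine and 132 on adenosine. Other ESC-WT sites were on uridine in 63.1% (62.9 to 63.3%) away from starts and in 40.6% at starts, so that the clusters lay above them in one setting and below them in the other. By part, cluster sites were on uridine in 78.8% in 3′ UTRs and 67.2% in coding exons, both above the other ESC-WT sites there (71.6% and 60.2%) beyond the intervals. In introns the clusters had 60.5% and the other sites 63.4%, with overlapping intervals. In 5′ UTRs the cluster sites had 26.8% (24.3 to 29.5%), below the 38.9% of other ESC-WT sites and nearer to the 23.0% of ESC noXL sites. At the highest-scoring site alone, 64.7% of clusters had a uridine.

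**Figure D3:**
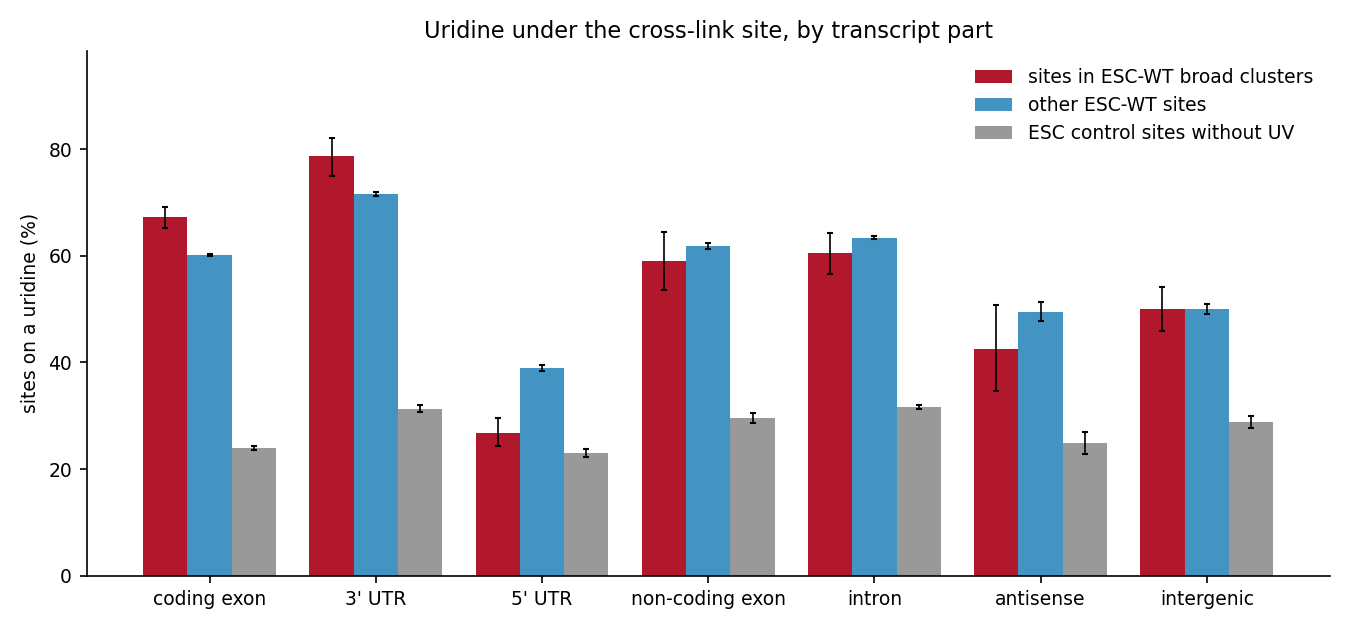
Share of sites on a uridine (%) by transcript part, for sites in ESC-WT broad clusters, other ESC-WT sites and ESC control sites without UV, with 95% Wilson intervals. In 3′ UTRs and coding exons the cluster sites lie above the other ESC-WT sites (78.8% and 67.2%), and in 5′ UTRs they lie below them (26.8%).

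The 41 nt around the highest-scoring site, read from the genome on the RNA strand and thus across exon junctions into introns, followed the same division. Windows at starts averaged 35.7% guanosine and 29.4% cytidine, and windows elsewhere 23.5% and 20.4%. Other ESC-WT regions showed a similar division, with 32.3% and 27.9% at starts and 23.5% and 21.2% elsewhere. Among all pentamers, ranked by the difference in the share of windows that held them (a description, with no test), CGCGG led at starts with 21.9% of cluster windows, and 11.3% of windows of other ESC-WT regions at starts held it. CUUCC was in 17.0% of start windows and in 8.38% of those of the other regions. Away from starts the leading pentamer was UUUUU, in 17.6% (15.2 to 20.2%) of cluster windows and 12.6% of the others, followed by UUUUG with 16.4% and 11.5%. GUAAG, the intron side of the 5′ splice site consensus, was in 7.19% of the windows away from starts and 3.65% of the others. For coding-exon regions within 20 nt of a junction these shares were 17.4% (13.4 to 22.3%) and 13.1%. UGUGU was in 6.15% of all cluster windows and 8.43% of the others, and the polyadenylation signal AAUAAA in 1.18% and 1.34%. CCCUC was in 5.31% and 4.17%, UUAUU in 7.25% and 7.24%, and GGGG in 13.3% and 9.91%, where at starts alone GGGG was in 23.8% and 20.1%.

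Most clusters recurred in another UV list. An ESC ΔZF1 site lay within 5 nt of 673 clusters (56.7%, 53.9 to 59.5%), an NPC-WT site near 772 (65.0%, 62.3 to 67.7%) and an NPC ΔZF1 site near 342 (28.8%, 26.3 to 31.5%). Over all 336529 ESC-WT regions without a noXL site nearby the shares were 11.3%, 12.9% and 6.41%. The NPC noXL list, which the choice of clusters did not use, had a site near 173 clusters (14.6%, 12.7 to 16.7%) and near 3.04% of all regions. With the clusters moved 500 and 1000 nt to either side, the shares averaged 3.45% for ESC ΔZF1, 3.18% for NPC-WT, 2.02% for NPC ΔZF1 and 1.03% for NPC noXL. Clusters exceeded regions of 2 or 3 sites by 35.6 points (32.7 to 38.4) for ESC ΔZF1, 39.6 points (36.8 to 42.3) for NPC-WT, 17.2 points (14.7 to 19.9) for NPC ΔZF1 and 9.61 points (7.71 to 11.7) for NPC noXL. Against regions of 4 or more sites under 10 nt the differences were 4.31 points (0.57 to 8.02), 4.58 points (0.95 to 8.17), 0.51 points (-2.86 to 3.91) and 3.53 points (1.03 to 6.09). Clusters span more positions than single sites and have higher scores, and the part of either in these shares was not tested. Near the highest-scoring site alone the shares were 43.2% (ESC ΔZF1), 49.96% (NPC-WT) and 18.8% (NPC ΔZF1), with 9.02%, 9.98% and 5.20% for single sites. Regions of 4 or more sites under 10 nt had 48.7% (46.2 to 51.1%), 57.9% (55.4 to 60.2%) and 25.4% on this measure, above the clusters, so that the clusters' excess over them was seen only with the whole width counted. The lists differ in length, and NPC ΔZF1 is the shortest UV list. The part of list length in these shares was not tested.

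The 2 settings differed in which lists met them. At transcript starts 76.2% of clusters had an ESC ΔZF1 site and 78.1% an NPC-WT site, compared with 49.8% and 60.4% elsewhere, differences of 26.4 points (20.4 to 31.9) and 17.7 points (11.9 to 23.1). Smaller regions also recurred more at starts: for ESC ΔZF1 the shares at starts and elsewhere were 71.2% and 49.5% for regions of 4 or more sites under 10 nt, 41.5% and 19.2% for regions of 2 or 3 sites and 17.98% and 8.50% for single sites. For NPC-WT these were 70.2% and 58.95%, 40.4% and 23.96%, and 18.02% and 9.52%. For NPC ΔZF1 the cluster shares were 27.3% and 29.3%, a difference of -2.01 points (-7.60 to 3.96). Regions of 2 or 3 sites had 14.6% and 11.3% there, and single sites 6.87% and 5.10%. The NPC noXL list met 26.4% of start clusters and 10.4% of the others, a difference of 16.0 points (10.9 to 21.5). Start clusters thus had a noXL share close to their NPC ΔZF1 share, whereas away from starts the NPC ΔZF1 share was above the noXL share (8.54 to 12.6%). Regions of 4 or more sites under 10 nt did the same, with 24.2% for NPC ΔZF1 and 23.3% for NPC noXL at starts. Elsewhere they had 28.9% and 9.17%. The part of reads that arise without cross-linking in the recurrence at starts was not tested.

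**Figure D4:**
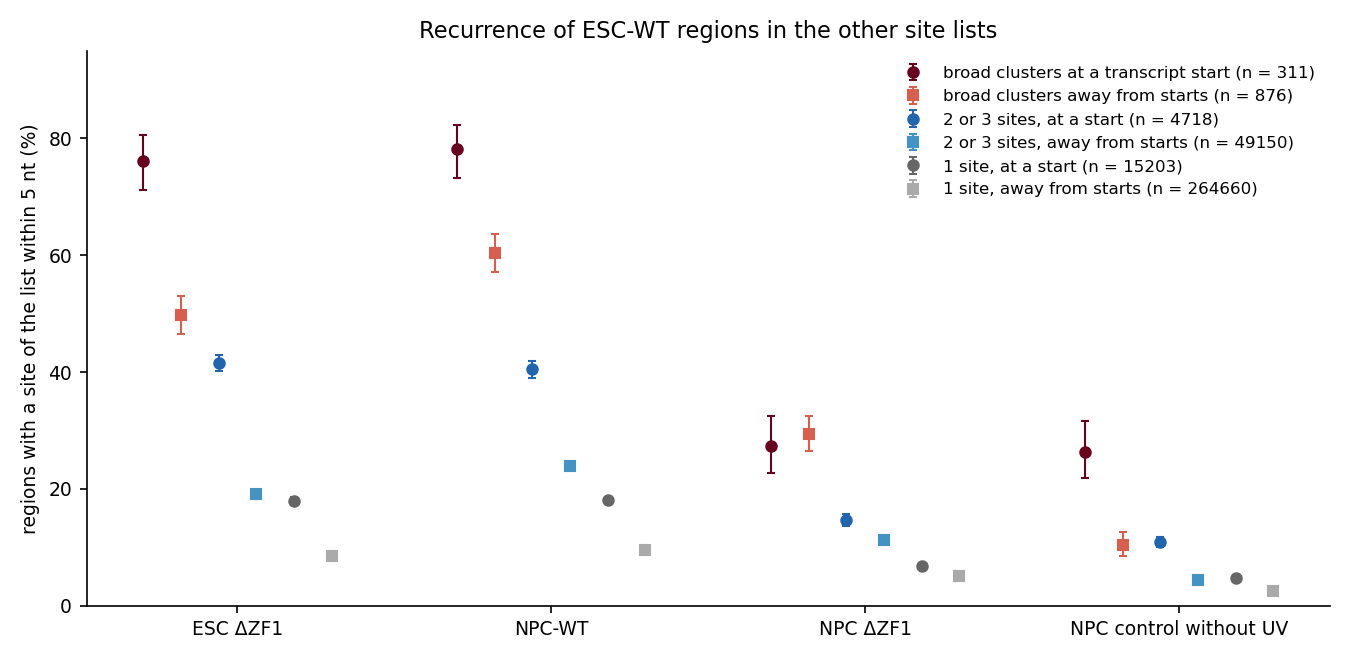
Share of ESC-WT regions (%) met by another list within 5 nt, for broad clusters, regions of 2 or 3 sites and single sites, each at transcript starts (circles) and away from them (squares), with 95% Wilson intervals. Among the classes drawn, broad clusters lead in each list. Regions of 4 or more sites under 10 nt are not drawn. Away from starts they have 49.5% for ESC ΔZF1, beside 49.8% for the clusters. At starts their share is 76.2% for ESC ΔZF1 and 26.4% for the NPC control without UV.

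Across transcript parts, ESC ΔZF1 sites met 23 of 27 antisense clusters (85.2%, 67.5 to 94.1%), 80.1% of 5′ UTR clusters, 72.9% of intergenic ones, 60.3% in non-coding exons, 47.2% in coding exons, 42.5% in 3′ UTRs and 42.3% in introns. NPC-WT sites met 62.96%, 78.4%, 71.96%, 65.5%, 65.9%, 64.6% and 33.6% in the same order. In coding exons 142 clusters had an NPC-WT site and no ESC ΔZF1 site, and 48 had the reverse. In 3′ UTRs these counts were 37 and 12, and in non-coding exons 6 and 3. The reverse was the larger count in introns (21 and 33), in 5′ UTRs (28 and 32), in antisense clusters (3 and 9) and in intergenic ones (9 and 10), the last by a single cluster. NPC ΔZF1 sites met 26 of 137 intron clusters (13.3 to 26.4%) and 25.9% of the 27 antisense ones, and from 29.0% to 32.7% in the other 5 parts. Coding-exon clusters within 20 nt of a junction had an ESC ΔZF1 site in 52.7% (46.8 to 58.4%) and those farther away in 40.6% (34.2 to 47.2%). With NPC-WT the values were 69.0% and 63.1%, and the intervals overlapped for both lists.

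Taking the 3 lists together, 212 clusters (17.9%) had a site in all of them and 231 (19.5%) in none. The most frequent pattern was ESC ΔZF1 with NPC-WT alone, in 314 clusters (26.5%). NPC-WT alone met 180 clusters, ESC ΔZF1 alone 120 and NPC ΔZF1 alone 37. Clusters of 4 sites recurred least often. The ESC ΔZF1 share rose from 46.9% with 4 sites to 69.1% with 5, 75.5% with 6 and 86.3% with 7 or more, and the NPC ΔZF1 share from 23.6% to 30.5%, 43.4% and 54.8%, which gave 48.0% for clusters of at least 6 sites. The NPC-WT share was 58.7%, 69.5%, 85.8% and 83.6%, with no rise in the last class. The NPC noXL share ran 12.3%, 17.4%, 18.9% and 21.9%, with overlapping intervals between neighbours. Recurrence was usually at a few positions, not the whole cluster: 343 clusters had at least 2 ESC ΔZF1 sites and 42 at least 4, and for NPC-WT these counts were 476 and 94. No cluster had 4 NPC ΔZF1 sites. At the same nucleotide, 16.3% of cluster sites had an ESC ΔZF1 site, 22.0% an NPC-WT site, 4.96% an NPC ΔZF1 site and 2.00% an NPC noXL site, beside 4.38%, 6.29%, 2.11% and 0.656% for the other ESC-WT sites. For clusters in genes with at least 5 sites of the other list outside clusters, the shares with a site were 52.7% (ESC ΔZF1), 65.6% (NPC-WT) and 28.7% (NPC ΔZF1). In genes with fewer such sites the ESC ΔZF1 share was higher at 68.9% (59.5 to 77.1%), the NPC-WT share lower at 53.3% (43.9 to 62.4%) and the NPC ΔZF1 share 27.5%.

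Dense regions, broad or narrow, lay in multi-copy sequence more often than regions of fewer sites. The central 32 nt occurred more than once in the genome for 198 clusters (16.7%, 14.7 to 18.9%), compared with 16.4% (14.7 to 18.3%) of regions of 4 or more sites under 10 nt, 6.68% of regions of 2 or 3 sites and 4.83% of single sites. The part of read placement among such copies in these clusters was not tested. The multi-copy share was 48.1% for antisense (13 of 27), 40.2% for intergenic, 36.2% for non-coding exon, 22.6% for intron, 20.4% for 3′ UTR, 11.9% for coding-exon and 2.90% for 5′ UTR clusters. Repeat-masked sequence filled over 50% of the window of 18.6% (16.5 to 20.9%) of all clusters, beside 435 of 1611 (24.9 to 29.2%) regions of 4 or more sites under 10 nt, 17.99% of regions of 2 or 3 sites and 16.6% of single sites. By part it did so for 54.0% of intron, 44.4% of antisense, 38.9% of 3′ UTR, 32.7% of intergenic, 29.3% of non-coding exon, 5.95% of coding-exon and 3.73% of 5′ UTR clusters. Without the multi-copy clusters the recurrence shares were 55.2% (ESC ΔZF1), 63.6% (NPC-WT) and 28.1% (NPC ΔZF1).

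Transfer RNA genes accounted for some of the clusters outside GENCODE genes and were looked at after the values were seen. In the RefSeq annotation of the same build, 11 clusters (0.927%, 0.518 to 1.65%) lay in tRNA genes, beside 0.138% of single sites and 0.0686% of ESC noXL sites. Regions of 4 or more sites under 10 nt had 0.248% (0.0966 to 0.637%), with an overlapping interval, and regions of 2 or 3 sites 0.234%. They were 4 genes of the n-TTagt family and 4 of the n-TNgtt family, whose names give threonine and asparagine tRNAs, with n-TLtag3, n-TLaag5 and n-TVaac8. In 10 of the 11 the cluster began at nucleotide 27 of the gene and ended between nucleotides 36 and 38, which takes in the anticodon loop. The sequences above show the shared form, with a single G first and the other capitals over the loop. An ESC ΔZF1 site met all 11, an NPC-WT site 10, an NPC ΔZF1 site 7 and an NPC noXL site none. At n-TTagt6 the 6 ESC-WT sites stood beside 5 of ESC ΔZF1, 6 of NPC-WT and 3 of NPC ΔZF1. Of the 11, 8 had further exact copies in the genome, so genes of one family can share reads and are not independent.

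The 7SK RNA, a small nuclear RNA that holds the elongation factor P-TEFb inactive, carried the cluster with most sites. Rn7sk (chr9:78175303-78175633, minus strand) held 3 clusters of 8, 5 and 18 sites at nucleotides 177 to 194, 236 to 250 and 265 to 296 of its 331 nt. In the whole gene lay 41 ESC-WT sites, 31 of ESC ΔZF1, 3 of NPC-WT and none of the other lists. The 8-site cluster had 5 exact copies in the genome and the others 1. Within 5 nt of the clusters lay 9, 5 and 10 ESC ΔZF1 sites and 2, 1 and 0 NPC-WT sites, in the same order. Both ESC UV lists thus had sites at all 3 Rn7sk clusters, with few NPC sites. In the 18-site cluster the ESC-WT sites lay up to 31 nt from its first site, and the ESC ΔZF1 sites only up to 14 nt. The abundance of the RNA in the libraries was not measured.

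**Figure D5:**
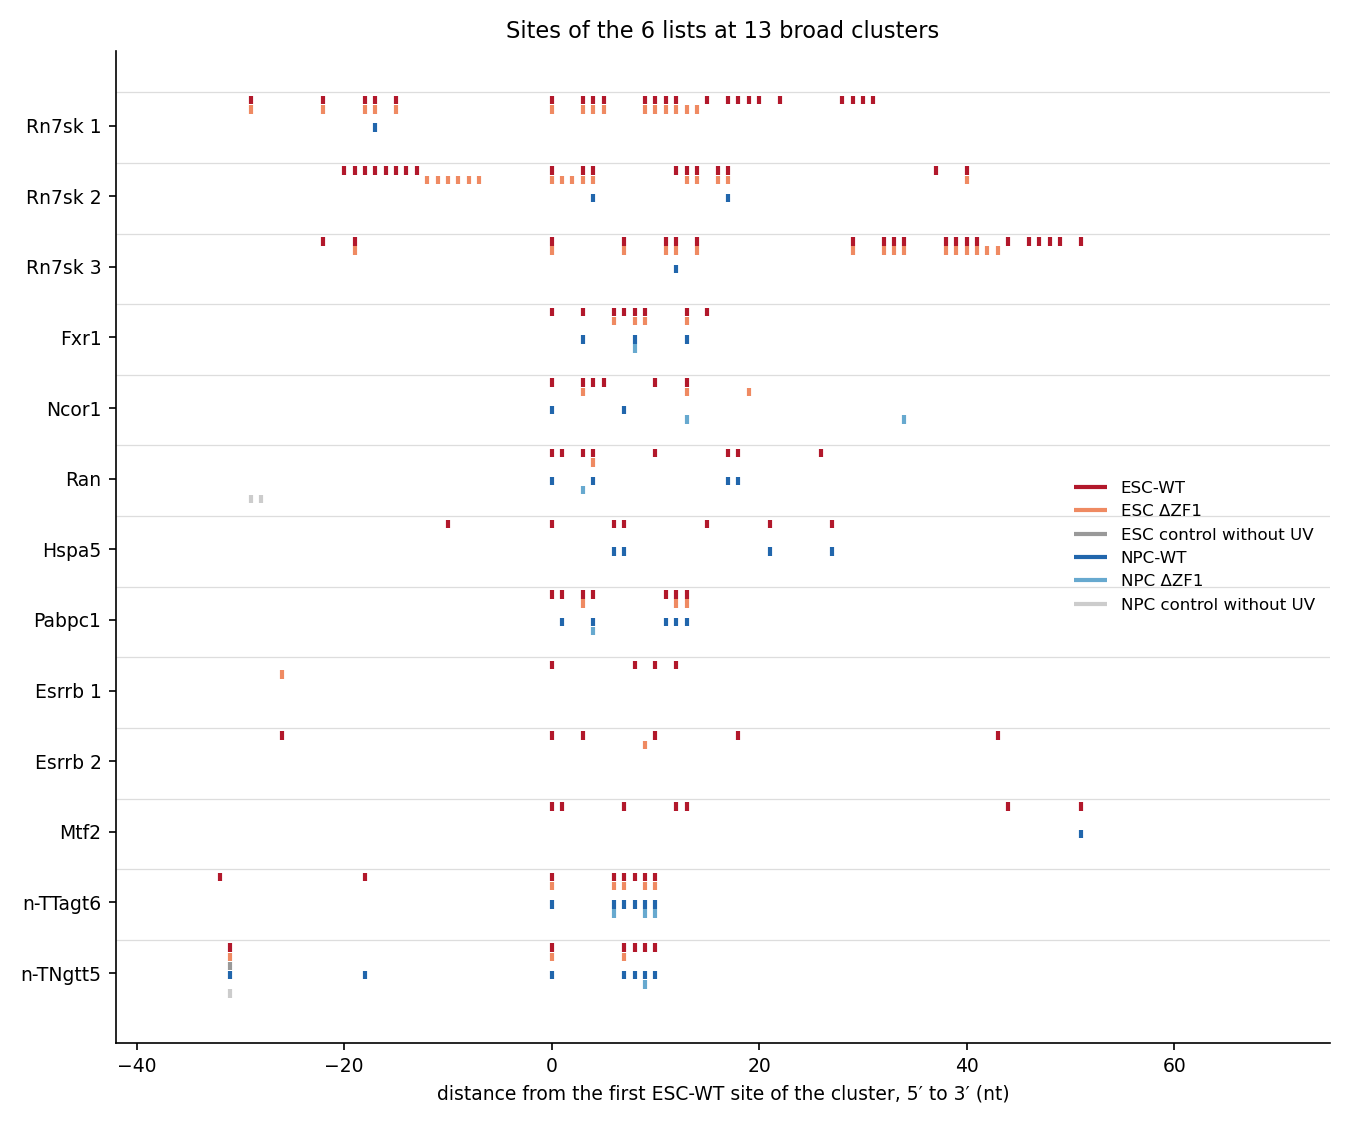
Sites of the 6 lists around 13 broad clusters, as distance in nt from the first ESC-WT site of the cluster along the RNA, with up to 40 nt drawn on each side. Neighbouring Rn7sk clusters show some of the same sites. ESC ΔZF1 sites lie in all Rn7sk clusters, in the 18-site one only up to 14 nt from its first site. NPC-WT sites lie in the clusters of Fxr1, Ncor1, Ran, Hspa5, Pabpc1 and the tRNA genes and in 2 of Rn7sk. The Esrrb and Mtf2 clusters have few sites of other lists.

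Other clusters with many sites were in varied places. A 17-site cluster over 54 nt lay 35 nt before an annotated start at chr9:110281252-110281305, with 9 NPC noXL sites and no site of ESC ΔZF1, NPC-WT or NPC ΔZF1. An intron of Phactr2, which encodes a phosphatase and actin regulator, held 11 sites in a pyrimidine repeat with 4 exact copies, shown in capitals in cuuuccCUUucCCUUucCCUuuccCuuucc (chr10:13307417-13307446, minus strand), with 1 NPC ΔZF1 and 1 NPC noXL site. An intergenic cluster of 10 sites at chr16:17222333-17222342 had 5 ESC ΔZF1, 6 NPC-WT and 1 NPC ΔZF1 sites. Gm24497, an snRNA gene with 4 copies, held 8 sites with 5, 6 and 1 in the same lists, and Gm10800 held 10 with 1, 4 and 1. The clusters with most sites were thus often in repeats, small RNAs or unannotated sequence.

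Of the 1187 clusters, 1053 lay in a gene on their strand, and 931 genes held at least one. These were 9.78% of the 9519 genes with an ESC-WT region free of noXL sites. One cluster was found in 832 genes, 2 in 81 and 3 or more in 18. Genes with a cluster had a median of 54 ESC-WT sites, and all these genes 23. Among genes with at least 100 ESC-WT sites 26.6% (24.0 to 29.3%) held a cluster, and among the rest 7.68%.

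Esrrb, an orphan nuclear receptor of the ESC pluripotency network, had most clusters, with 4 in introns and 1 in a coding exon, each of 4 sites. It held 460 ESC-WT, 263 ESC ΔZF1 and 158 ESC noXL sites and none in any NPC list. An ESC ΔZF1 site met 2 of its 5 clusters. Mtf2, an accessory subunit of Polycomb repressive complex 2, had 4 clusters of 4 or 5 sites, and none met a site of ESC ΔZF1, NPC-WT, NPC ΔZF1 or NPC noXL although the gene held 199, 103, 85 and 63 of them. Tfrc, the transferrin receptor, had 4 clusters, of which 3 met no other list and the coding-exon cluster of 5 sites met 1 ESC ΔZF1, 3 NPC-WT, 1 NPC ΔZF1 and 1 NPC noXL site. Smg1, a kinase of nonsense-mediated decay, had 4 clusters, and ESC ΔZF1 and NPC-WT sites met 3 each. Its intron cluster lay on guanosines of a G-rich stretch, gguggguaggGGaguuggGGggguagugua (chr7:118201680-118201709, minus strand), unlike the uridine pattern of most internal clusters. Each of the 4 Smg1 clusters met a site of ESC ΔZF1 or NPC-WT, whereas none of the 4 in Mtf2 did.

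Other genes had 3 clusters each. Ran, the GTPase of nuclear transport, had clusters of 8, 5 and 4 sites, and its 3 clusters all met NPC-WT sites. Ube2d3, a ubiquitin-conjugating enzyme, had clusters of 7, 6 and 4 sites, 3 with NPC-WT and 2 with ESC ΔZF1 sites. Rps2, of the small ribosomal subunit, had 3 coding-exon clusters, of which 3 met NPC-WT and 2 ESC ΔZF1 sites, and each had 35 or more exact copies in the genome. Eef1g, of the elongation factor 1 complex, had 3 clusters with NPC-WT and 2 with ESC ΔZF1 sites. Caprin1, an RNA-binding protein gene, had a pair of 3′ UTR clusters of 6 and 5 sites and an intron cluster of 4. Pabpc1, the cytoplasmic poly(A)-binding protein, had a coding-exon cluster of 7 sites with 3 ESC ΔZF1, 5 NPC-WT and 1 NPC ΔZF1 sites, beside 2 of 4 sites. Ncor1 had 1045 ESC-WT sites in all and a start cluster of 6 sites, met by 2 ESC ΔZF1, 2 NPC-WT and 1 NPC ΔZF1 sites. Scpep1, a serine carboxypeptidase, and Tcof1, the nucleolar treacle protein, had 3 clusters each, and all 3 of each gene met ESC ΔZF1 sites. Gm47283 on chromosome Y had 3 clusters, of which 2 were multi-copy.

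Gene lists by function gave the following counts, without a test of the lists. Genes holding a cluster are to be read against 9.78% of all genes tested and 26.6% of genes with at least 100 ESC-WT sites, and recurrence against the shares over all clusters, 65.0% with NPC-WT, 56.7% with ESC ΔZF1, 28.8% with NPC ΔZF1 and 14.6% with NPC noXL. Of 76 cytosolic ribosomal protein genes, 23 held 28 clusters, and 18 of these clusters were multi-copy. Rps27, Rps27a and Rps14 had 2 clusters each. NPC-WT sites met 27 of the 28, ESC ΔZF1 sites 20, NPC ΔZF1 sites 12 and NPC noXL sites 4, and the median ribosomal protein gene had 43 ESC-WT sites. Translation factors had clusters in 11 of 62 genes, among them Eef1a1, which delivers tRNAs to the ribosome, and Eif4g1, a scaffold of cap-dependent initiation, with 2 clusters each. Of their 18 clusters 17 met an NPC-WT site and 15 an ESC ΔZF1 site. Heat shock and chaperonin genes had clusters in 11 of 57, with 2 in the chaperonin subunit gene Cct8. Of their 12 clusters 7 met an NPC-WT site, 3 an ESC ΔZF1 site and 6 an NPC ΔZF1 site. Hspa5, the endoplasmic reticulum chaperone BiP, had one of the widest clusters at 28 nt, with 4 NPC-WT sites and no ESC ΔZF1 site. Actin and tubulin genes had clusters in 4 of 10, namely Tubb2b, Tuba1a, Actg1 and Tubb5. Nucleolar protein genes had clusters in 1 of 10, the rRNA methyltransferase gene Nop2 with 2.

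Among genes of RNA processing, hnRNP genes had clusters in 6 of 20, with 2 in Hnrnpc and 1 each in Hnrnpa3 and Hnrnpf, and a median of 106.5 ESC-WT sites a gene. Of their 7 clusters 5 met an NPC-WT and 5 an ESC ΔZF1 site. SR splicing factor genes had 1 of 9, Srsf3, and DEAD and DEAH helicases 6 of 47, among them Ddx6 with a cluster of 6 sites and Dhx9 with one of 5. Of the 6 helicase clusters 4 met an NPC-WT and 1 an ESC ΔZF1 site. HECT ubiquitin ligase genes had clusters in 7 of 16, with 2 each in Huwe1, Nedd4 and Trip12, and a median of 102 ESC-WT sites a gene, and of their 10 clusters 6 met an NPC-WT and 6 an ESC ΔZF1 site. Nuclear pore and importin genes had 7 of 39, with 2 in Kpna2 and 2 in Ipo5 and a median of 123 ESC-WT sites, and of their 9 clusters 2 met an NPC-WT and 4 an ESC ΔZF1 site. Chromatin remodellers had 3 of 21 (Smarcad1, Chd4 and Smarce1) and histone methyl- and acetyltransferases 2 of 25 (Ep300 and Nsd1). Of 13 cohesin and CTCF genes, Pds5b and Smc3 held 1 cluster each. The pluripotency list had clusters in 4 of 19 genes, Esrrb, Klf4, L1td1 and Zfp42, and of their 8 clusters 3 met an ESC ΔZF1 site and none an NPC-WT or NPC ΔZF1 site. Of these 8, 5 lay in Esrrb and 1 in Klf4, which had no site of either NPC list in the whole gene, so their clusters could meet none. Nuclear long non-coding RNAs had none in 11 measured genes.

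The same merging gave far fewer dense regions in the other lists. With no removal by noXL sites, ESC-WT gave 2025, NPC-WT 331, ESC ΔZF1 160, ESC noXL 9, NPC noXL 2 and NPC ΔZF1 1. Per 100000 sites this was 449, 138, 69.1, 5.66, 1.87 and 0.631. On the 107227 highest-scoring sites of each list the counts were 391, 114, 56, 8, 2 and 1, so the order of the 3 largest was unchanged at equal list length. Of the 331 regions in NPC-WT 49 lay on the highest-scoring site of an ESC-WT broad cluster, and of the 160 in ESC ΔZF1 21. These broad clusters are the 1187 left after removal by noXL sites, so overlap with the 838 removed ESC-WT regions was not counted. The lists were not equalised at the level of reads, and the part of read depth in these counts was not tested.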

How the data were processed

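Nuclear iCLIP2 libraries (23 in 6 groups) were processed by the authors with Flexbar, STAR on mm10, UMI-tools and bedtools, merged within groups, and searched for cross-link sites with PureCLIP. Versions were not given in the sources used here. Each deposited list holds 1-nt sites with the PureCLIP score that the authors deposited (a log ratio of state probabilities, up to a shared highest value of 708.396), so read depth is unknown and low-coverage sites near the calling limit carry more error. Sites were merged and compared with Python 3.11.15, numpy 2.4.6, pandas 2.3.3 and scipy 1.17.1. Transcript parts came from GENCODE M21, with coding exon before 3′ UTR, 5′ UTR, non-coding exon and intron, and sequence from GRCm38.p6. Merging and overlap were tested on simulated lists. A site counted as shared within 5 nt on the same strand. Intervals are 95% Wilson intervals, and those of differences combine them by Newcombe's method. No test was run, since each group has 1 merged list, and regions of one transcript are not independent. The clusters and gene lists were chosen with earlier results of these data known. Named genes were the 15 with most clusters, cluster-bearing members of the gene lists (up to 3 a list) and the markers. Named clusters were those with most sites (10), most sites in other UV lists (6), the widest (5) and the first of each transcript part. The 50-nt start window, the 20-nt junction window, the tRNA genes and the list members named beyond 3 were chosen after seeing the data. Alternatives changed the merging, the size limits, the removal by noXL sites, scores, tolerance and annotation order.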

Additional observations from a re-analysis of the deposited data

Results flagged for a closer look

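Sequences outside chromosomes 1 to 19, X and Y were not used in the comparisons, and they held dense ESC-WT regions. By the same merging ESC-WT had 6 dense regions there among 758 sites, 1 of them mitochondrial, without removal by noXL sites. ESC noXL, a shorter list in which dense regions were rare on the main chromosomes too (9 among 158968 sites), had 0 among 243 sites, ESC ΔZF1 and NPC-WT 1 each, and NPC ΔZF1 and NPC noXL 0.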

How the results depend on the processing

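Of 107 values under alternatives, 44 stayed within 1.5 times (counts) or inside the interval of the reported value (shares), and 63 moved. Clusters numbered 292 (246 genes) with merging at 5 nt, 179 (132 genes) with at least 6 sites, 326 (279 genes) with a span of at least 15 nt, 391 (298 genes) with only sites at or above the median score of the 6 lists, and 2025 (1480 genes) without removal by noXL sites. In that order the ESC ΔZF1 share was 66.4%, 79.9%, 61.0%, 72.1% and 69.0%. The NPC-WT share was 71.6%, 84.9%, 68.4%, 75.4% and 71.4%, and the NPC ΔZF1 share 34.6%, 48.0%, 31.6%, 32.5% and 32.9%. The coding exon share was 38.7%, 27.4%, 39.0%, 36.3% and 32.7%, and the uridine share 51.4%, 54.8%, 53.5%, 54.4% and 46.5%. The intron share moved to 8.90% with the wider span, 4.86% with the score limit, 9.68% without removal and 24.1% with introns first, which gave 37.2% for coding exons. The 3′ UTR share moved to 6.91% with the score limit and 6.86% without removal. At a tolerance of 0 nt the shares with a site of ESC ΔZF1, NPC-WT and NPC ΔZF1 were 51.9%, 61.5% and 25.4%, at 50 nt 73.7%, 75.3% and 42.4%, and near the highest-scoring site alone 43.2%, 49.96% and 18.8%. In genes with at least 5 ESC ΔZF1 sites outside clusters the ESC ΔZF1 share was 52.7%. On uridine were 64.7% of the highest-scoring sites. Left out after seeing the data, start clusters changed the ESC ΔZF1 share to 49.8%, NPC-WT to 60.4%, introns to 15.1%, coding exons to 53.8%, 3′ UTRs to 12.9% and uridine to 66.3%, and multi-copy clusters changed uridine to 55.0%. At equal list length the dense regions numbered 391 for ESC-WT, 56 for ESC ΔZF1 and 114 for NPC-WT. Under every alternative that gave all 3 shares NPC-WT stayed highest and NPC ΔZF1 lowest. Leaving out chromosome 11 or widening the noXL distance to 50 nt moved no value. The cause of these changes was not tested, beyond fewer clusters under stricter limits. No paired analysis was possible because site calling had combined all replicates of a group. No replicate could be left out either, and the part of read depth in the shorter lists was not tested.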

Other observations

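Chromosome Y held 16 clusters, 1.35% (0.831 to 2.18%) of all, beside 0.0918% of the other ESC-WT regions, and 9 of the 16 were multi-copy. Chromosome 11 held most clusters, 139 (11.7%), close to its 12.6% of the other regions.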
